A study of Saccharomyces cerevisiae with 28 samples.

Results

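HXT1 to HXT7 are the 7 major hexose transporter genes of budding yeast, and their mRNAs were followed here in total RNA by strain and peroxide treatment and in PAR-CLIP by LARP and condition. The 7 genes were chosen by systematic name, out of 9217 features counted in total RNA of the untagged strains. For binding, the background is the 6002 protein-coding genes outside the mitochondria in the reference. HXT7 drew attention because it was among the strongest differences in H2O2 response between slf1Δ and WT. That difference is therefore described without a test, as are the contrasts of HXT6 and HXT7 that compare WT or slf1Δ libraries.

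Sro9 and Slf1 are yeast La-related proteins (LARPs), RNA-binding proteins with a shared La motif. The study asked which RNAs they bind and how RNA levels change without them, in growing cells and after 15 min of 0.4 mM H2O2, with 2 replicates per group. Every strain derives from BY4741. Total RNA was sequenced after rRNA depletion from WT, sro9Δ, slf1Δ, Sro9-TAP and Slf1-TAP cells, untreated or treated. The deletions listed are KanMX4 replacements of either gene and a slf1Δ strain made by CRISPR, and which slf1Δ strain was sequenced is not given in the sources used here. PAR-CLIP used the Sro9-TAP and Slf1-TAP strains, whose C-terminal tags sit at the natural loci under their own promoters, grown with 4-thiouracil in every PAR-CLIP group. Total RNA cultures were split into an untreated and a treated part. Since the labels do not say which replicates come from separate cultures, p-values measure the spread between libraries, which may in part be technical.

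Yeast takes up glucose by facilitated diffusion through the HXT transporters, which differ in affinity. Hxt1 and Hxt3 are low-affinity carriers used when glucose is abundant. Hxt2 and Hxt4 have higher affinity and are made when glucose is scarce, as are the high-affinity carriers Hxt6 and Hxt7, while Hxt5 is known from slow growth and stress. The sensors Snf3 and Rgt2 relieve repression by Rgt1, with its partners Mth1 and Std1, and Mig1 represses several HXT genes in high glucose.

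HXT6 and HXT7 are close to identical, which bounds what counts of either can show. Both lie on the reverse strand of chromosome IV in build R64 (sacCer3), HXT7 (YDR342C) at chrIV:1154216-1155928 and HXT6 (YDR343C) at chrIV:1159608-1161320, and each is 1 coding exon of 1713 nt. They differ at 3 of 1713 positions (99.8% identity), T1632C, G1666A and T1677C, counted from the A of the start codon with the HXT6 base first. Their longest identical run is 1631 nt. Outside the coding sequence they match for 84 nt before the start codon and 10 nt after the stop codon. The 25 bases around the first and second of these positions are shown because reads within the coding sequence can be assigned to 1 of the genes only near the differing bases. The base in question, in the middle, is in capitals, and the last base but 1 of the second pair is position 1677.
HXT6 around 1632: ggttccaccatcTagaagaggtgcc
HXT7 around 1632: ggttccaccatcCagaagaggtgcc
HXT6 around 1666: gctgaagaaatgGctcacgatgata
HXT7 around 1666: gctgaagaaatgActcacgatgaca

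The other members are easier to tell apart. HXT3 (YDR345C, chrIV:1162957-1164660, 1704 nt, reverse strand) lies beside HXT6 and shares runs of up to 149 nt with HXT6 and HXT7. HXT4 (YHR092C, chrVIII:287081-288811), HXT1 (YHR094C, chrVIII:290913-292625) and HXT5 (YHR096C, chrVIII:294669-296447) follow each other on the reverse strand of chromosome VIII. HXT2 (YMR011W, chrXIII:288079-289704) stands alone on the forward strand of chromosome XIII. Of all 30-nt windows, 95.8% of those in HXT6 or in HXT7 occur elsewhere in the genome, against 23.4% in HXT3, 9.86% in HXT1, 7.52% in HXT4, 5.83% in HXT5 and 0.438% in HXT2. For 13-nt windows the shares were 98.8% in HXT6 and HXT7, 68.6% in HXT3, 61.0% in HXT1, 62.5% in HXT4, 48.7% in HXT5 and 55.6% in HXT2. How reads that match several places were divided among the copies is not given for the counts, so HXT6 and HXT7 values cannot be told apart. HXT7 held between 49.3% and 57.8% of the HXT6 and HXT7 counts in the 10 untagged libraries with over 20 such counts.

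The untagged libraries varied in depth. Their total counts ran from 3323216 to 21447260, of which 1.65% to 94.8% fell on rRNA features, leaving between 172267 and 21094169 counts elsewhere. SRO9 had 0 or 1 count in each sro9Δ library and SLF1 had 0 in each slf1Δ library. SRX1, the H2O2-induced sulfiredoxin gene, had at most 2.11 CPM (normalised counts per 1000000 counts) in untreated libraries and at least 333 in treated ones, in all 3 untagged strains. The tagged total RNA libraries held 32079450 to 41098229 counts, and in these SRX1 went against the labels. The 4 libraries labelled untreated had 351 to 1242 CPM of SRX1 and the 4 labelled H2O2 had 0.882 to 3.84. The genes TSA2, TRX2, GTT2 and OYE3, which rose in treated libraries of all 3 untagged strains, went against the labels in the same way in both tagged strains. In Sro9-TAP, TSA2 had 7821 and 8140 CPM where labelled untreated and 87.7 and 94.4 CPM where labelled H2O2. No direction of an H2O2 response is drawn from the tagged libraries. In PAR-CLIP, by contrast, SRX1 cluster reads were 974 and 1051 in the Sro9 H2O2 libraries and 9 and 6 in the untreated ones, and 88 and 53 against 0 and 5 for Slf1.

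CPM use library sizes scaled by the TMM method, and in such bulk samples fewer cells with an mRNA and less of it per cell cannot be told apart. In WT cells, HXT3 was the most abundant member and HXT5 the least. Per kb of coding sequence, the untreated WT means were 193 for HXT3, 49.2 for HXT1, 32.4 for HXT2, 10.4 for HXT7, 8.96 for HXT6, 3.27 for HXT4 and 0.761 for HXT5. The HXT3 libraries lay above those of every other member, and those of HXT5 below. Per kb, HXT1 (39.4 and 59.0) overlapped HXT2 (24.1 and 40.6), as HXT6 did HXT7. After H2O2, the WT order was HXT3, HXT7, HXT6, HXT1, HXT2, HXT5 and HXT4, so the HXT6 and HXT7 pair had moved above HXT1 and HXT2. HXT5 and HXT4 then overlapped.

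**Figure D1:**
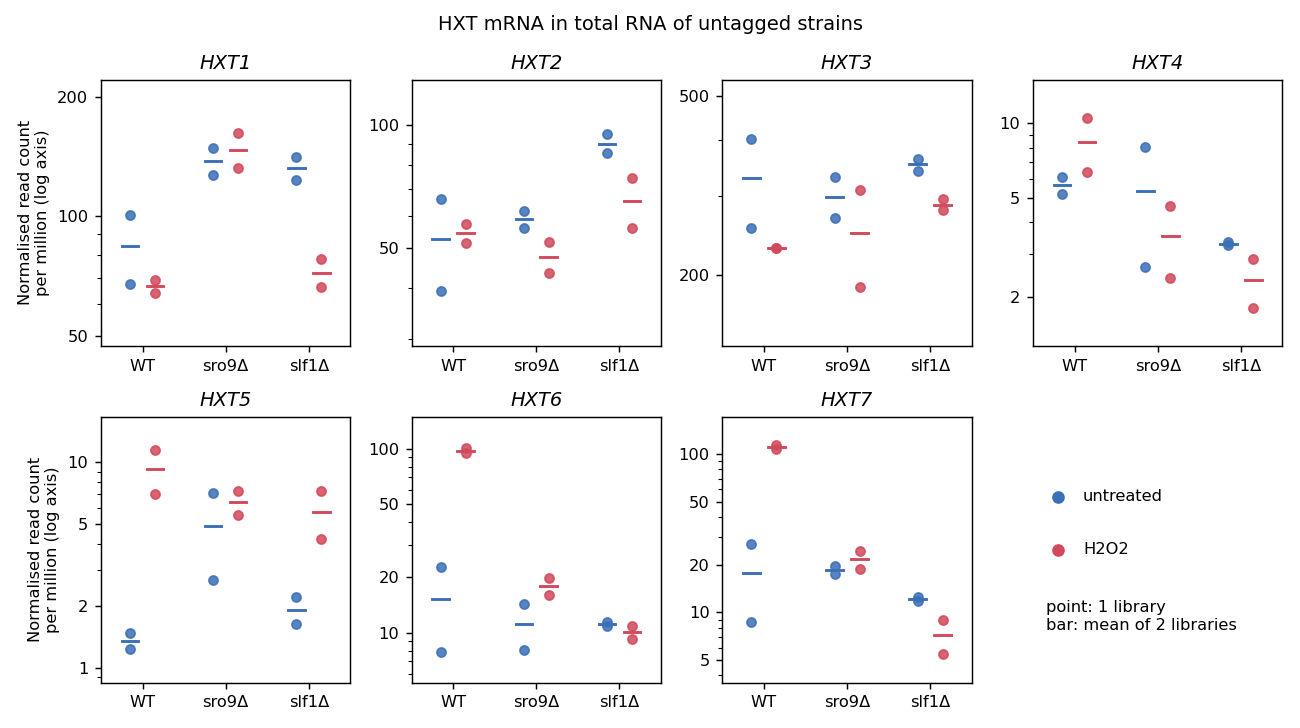
Normalised counts (CPM, log axis) of the 7 HXT mRNAs in the 12 untagged total RNA libraries, by strain, with 1 point per library and a bar at the mean of 2 libraries. HXT6 and HXT7 reached their highest levels in the 2 treated WT libraries, at 94.8 to 113, and HXT3 lay between 188 and 402 throughout.

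The high-affinity pair gives the pattern for which HXT7 was noticed. HXT7 had 8.7 and 27 CPM in untreated WT and 113 and 108 CPM after H2O2. In sro9Δ it had 17.4 and 19.5 CPM untreated and 24.4 and 18.9 CPM after H2O2. In slf1Δ it had 11.8 and 12.4 CPM untreated and 5.4 and 9.0 CPM after H2O2, the first from 3 counts and the second from 386. Treated WT libraries thus lay above every other untagged library, the sro9Δ groups overlapped, and both treated slf1Δ libraries lay below both untreated ones.

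The HXT7 ratio of treated to untreated means was 6.20 in WT, 1.17 in sro9Δ and 0.594 in slf1Δ. On the fitted log2 scale the responses were 2.60 ± 0.38 (SE, 2 against 2 libraries) in WT, 0.21 ± 0.42 in sro9Δ and -0.53 ± 0.42 in slf1Δ. The difference that chose the gene, slf1Δ minus WT, was -3.13 ± 0.57. No feature was called in that contrast at an adjusted p under 0.05 (0% of 7375, edgeR quasi-likelihood test, 875 at an unadjusted p under 0.05, 50 by DESeq2). In treated cells the log2 difference of HXT7 from WT was -3.71 ± 0.45 in slf1Δ and -2.35 ± 0.38 in sro9Δ, with no test, both against the same 2 WT libraries. In the slf1Δ minus WT difference the other members lay at -2.87 ± 0.56 (HXT6), -1.61 ± 0.58 (HXT5), -0.72 ± 0.60 (HXT4), -0.57 ± 0.39 (HXT1), -0.47 ± 0.39 (HXT2) and 0.22 ± 0.51 (HXT3), also without a test.

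HXT6 followed the same values. It had 7.9 and 22.8 CPM in untreated WT and 94.8 and 101 CPM after H2O2, with 8.0 and 14.3 then 19.9 and 16.0 CPM in sro9Δ and 10.9 and 11.4 then 10.9 and 9.2 CPM in slf1Δ. Its fitted responses were 2.63 ± 0.37 in WT, 0.54 ± 0.42 in sro9Δ and -0.23 ± 0.42 in slf1Δ (log2, SE). With the counts of both genes added into 1 feature, the WT response was 2.63 ± 0.38. The sro9Δ response is the only untagged contrast of the pair that compares no WT or slf1Δ library. It did not pass the test (edgeR, adjusted p = 0.786 for HXT7 and 0.417 for HXT6). The spread in that test was estimated over all untagged libraries, WT and slf1Δ included. Its standard errors and p-values are thus not independent of the libraries in which HXT7 was noticed.

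The 2 untreated WT libraries differed from each other in HXT7. The second, which had 27 CPM, also had more mRNA of the hexokinase gene HXK1 (62.6 against 15.1 CPM) and of the glucokinase gene GLK1 (270.2 against 15.8 CPM). Of the hexose phosphorylation genes only these are given here. All members other than HXT6 and HXT7 were lower in the second library, such as HXT3 (255 against 402 CPM) and HXT1 (67.6 against 101 CPM). The share of all features that differ as much between the 2 libraries was not counted. Without the second library the WT response of HXT7 was 3.66 and the slf1Δ difference -4.15, and without the first they were 2.03 and -2.53. The part of this spread in the HXT7 difference was not tested.

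HXT5, the transporter of slow growth, was the member that rose in WT by test. It had 1.5 and 1.2 CPM untreated and 11.5 and 7.0 CPM after H2O2, so the groups were apart, and the treated mean was 6.83 times the untreated one. The fitted log2 response was 2.89 ± 0.39 (edgeR, adjusted p = 6e-05), and 1 of the 5 members tested was called, against 35.6% of all 7375 features. In slf1Δ, HXT5 had 2.2 and 1.6 then 7.2 and 4.3 CPM, a log2 response of 1.29 ± 0.42 (adjusted p = 0.0476). In sro9Δ it had 2.7 and 7.1 then 5.5 and 7.3 CPM, so the groups overlapped, and the response was 0.08 ± 0.43 (adjusted p = 0.933). The treated ranges of the 3 strains overlapped, and the highest untreated level was that of the second sro9Δ library. These are low counts, down to 2 reads in 1 untreated sro9Δ library and 4 in 1 treated slf1Δ library.

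The untreated level of HXT5 in sro9Δ differed from that in WT by 2.18 ± 0.47 log2 units, which did not pass the test (edgeR, adjusted p = 0.0747). It did without the second untreated WT library (2.04, adjusted p = 0.0378), and without the second untreated sro9Δ library it was 1.02 ± 1.08 (adjusted p = 0.834). The difference between the sro9Δ and WT responses of HXT5 was -2.82 ± 0.58 (adjusted p = 0.388, and 0.0217 without that WT library). Without that sro9Δ library it was -1.65 (adjusted p = 0.792).

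**Figure D2:**
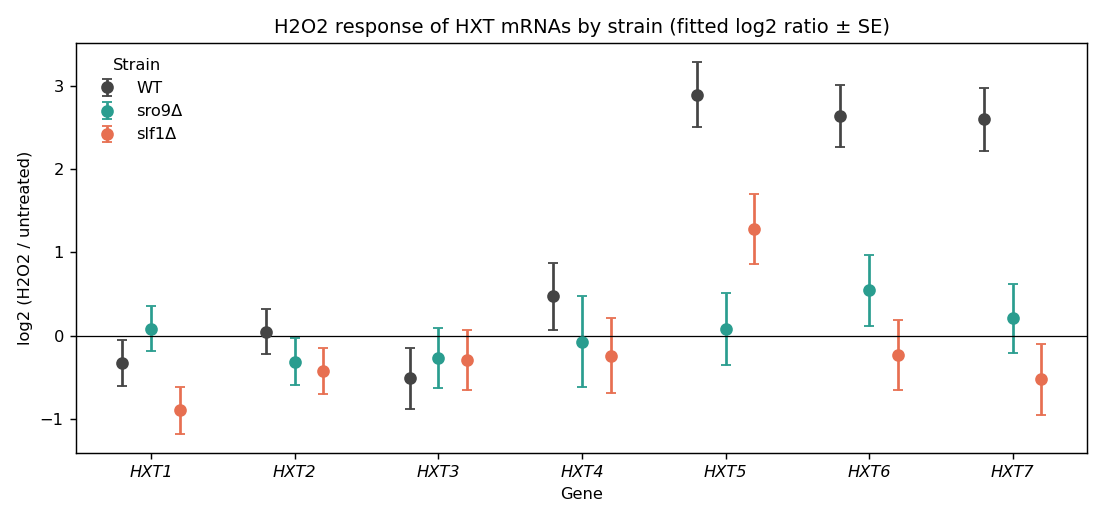
Fitted log2 ratio of H2O2 to untreated total RNA for each HXT gene in WT, sro9Δ and slf1Δ, with the standard error from 2 against 2 libraries. HXT7 and HXT6 lay at 2.60 and 2.63 in WT and at -0.53 and -0.23 in slf1Δ, HXT5 lay at 2.89 in WT and 0.08 in sro9Δ, and the low-affinity carriers HXT1 and HXT3 lay between -0.90 and 0.08.

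The low-affinity carriers did not pass the test in WT. HXT3 had 402 and 255 CPM untreated and 230.3 and 229.9 CPM after H2O2 in WT. In sro9Δ it had 268 and 330 then 309 and 188 CPM, and in slf1Δ 341 and 363 then 279 and 295 CPM. Treated slf1Δ libraries lay below untreated ones, as in WT, and the sro9Δ groups overlapped. Its log2 responses were -0.51 ± 0.36 in WT, -0.27 ± 0.36 in sro9Δ and -0.29 ± 0.36 in slf1Δ, none past the threshold (edgeR, adjusted p = 0.289, 0.665 and 0.623). HXT3 spanned 188 to 402 CPM over all 12 libraries.

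HXT1 fell in slf1Δ. It had 124 and 141 CPM untreated and 77.9 and 66.4 CPM after H2O2, with no overlap, and a log2 response of -0.90 ± 0.28 (edgeR, adjusted p = 0.0409). With HXT5, 2 of 5 tested members were called in slf1Δ, against 17.1% of all features. In WT, HXT1 had 101 and 67.6 then 69.3 and 64.3 CPM (-0.33 ± 0.27, adjusted p = 0.367), and in sro9Δ 127 and 149 then 162 and 132 CPM (0.08 ± 0.28, adjusted p = 0.879). Both slf1Δ calls were lost on leaving out any 1 of the 4 slf1Δ libraries, with adjusted p from 0.0674 to 0.232 for HXT1 and 0.0793 to 0.306 for HXT5.

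The sro9Δ libraries lay above those of WT for HXT1 in both conditions, with log2 differences of 0.72 ± 0.28 untreated and 1.14 ± 0.28 after H2O2 (SE). Neither difference passed edgeR's test (adjusted p = 0.431 and 0.277), and DESeq2 called the second (adjusted p = 0.0398).

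The middle members showed no call in any untagged contrast. HXT2 had 66.1 and 39.2 CPM in untreated WT and 51.6 and 57.2 after H2O2, and 85.4 and 95.1 then 56.2 and 74.4 CPM in slf1Δ. In sro9Δ, HXT2 had 56.2 and 61.8 then 51.9 and 43.5 CPM. The untreated slf1Δ libraries lay above those of WT, by 0.78 ± 0.27 log2 units (edgeR, adjusted p = 0.282), and this passed only without the first untreated WT library (0.0421). HXT4 was scarce, with 1.8 to 10.5 CPM and as few as 1 count in a library. Its WT libraries had 6.1 and 5.2 then 6.4 and 10.5 CPM, and those of slf1Δ 3.2 and 3.3 then 1.8 and 2.9 CPM. In sro9Δ, HXT4 had 8.0 and 2.6 then 4.7 and 2.4 CPM. After H2O2, all deletion libraries lay below those of WT, with log2 differences of -1.48 ± 0.47 for slf1Δ (edgeR, adjusted p = 0.178) and -1.08 ± 0.41 for sro9Δ (adjusted p = 0.499).

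Counted over members, 0 of 7 passed in the sro9Δ response (edgeR, 0 at an unadjusted p under 0.05, 0 by DESeq2), where 15.9% of all features did. Between strains, 0 of the 5 tested members passed for sro9Δ against WT untreated, where 0.217% of all features did, and 0 for slf1Δ against WT untreated, where 0.149% did. After H2O2 the count was 0 for sro9Δ, where 0.0407% of features passed, and 0 for slf1Δ, where 0.705% did. These shares are 3 and 52 features, and both include HXT6 and HXT7. The pair is left out of the member counts because HXT7 was chosen for its difference, so nothing is drawn from its presence there. In each of these 4 contrasts 2 of the 5 members had an unadjusted p under 0.05 (edgeR). In the same order, 723, 885, 628 and 1040 of all 7375 features did. DESeq2 called 1 member in the treated sro9Δ contrast and 0 in the others. The sro9Δ and WT responses differed by test in 0 of 5 members and in 0% of features, with 1 member and 539 features at an unadjusted p under 0.05 and 0 members and 16 features by DESeq2.

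Other genes of glucose use were counted by list. Of the 4 hexose phosphorylation genes, which trap sugar after uptake, 3 rose in WT, namely HXK1 (log2 response 3.57 ± 0.51), EMI2, a hexokinase-like gene (3.17 ± 0.50), and GLK1 (2.89 ± 0.81, edgeR, adjusted p = 0.0122), beside 19.4% of all features that rose. The list's median log2 response was 3.03 beside 0.03 over all features. In slf1Δ the same 3 rose (2.02, 2.92 and 2.78 in that order), beside 11.4% of features, and in sro9Δ 2 did, HXK1 at 1.52 (adjusted p = 0.0450) and EMI2 at 2.42, beside 10.4%. When single libraries were left out, HXK1 and EMI2 kept their calls in WT, while GLK1 lost its call there without the first treated library (adjusted p = 0.0579). EMI2 also kept its call in slf1Δ, where HXK1 and GLK1 each lost theirs on leaving out any of 3 libraries (0.0681 to 0.201 and 0.0961 to 0.160). In sro9Δ, HXK1 lost its call without any 1 library (0.0516 to 0.224) and EMI2 without the second untreated one (0.0861). HXK1 had 522 and 406 CPM in treated WT, 116 and 172 in treated sro9Δ and 34.4 and 51 in treated slf1Δ. HXK1 was lower in treated slf1Δ than in WT by a log2 difference of -3.38 ± 0.52 (edgeR, adjusted p = 0.00775). This call was lost without the first treated WT library (-3.18, adjusted p = 0.0609), the first treated slf1Δ library (-3.18, 0.0680), which had 19 HXK1 counts, or the second (-3.75, 0.352).

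Of 13 genes of glucose sensing and repression, 1 passed in WT, the corepressor gene MTH1 (1.65 ± 0.40, edgeR, adjusted p = 0.00458), 0 in sro9Δ, and 1 in slf1Δ, the repressor gene MIG2, which fell (-2.53 ± 0.47, adjusted p = 0.0016). These counts stand beside 35.6%, 15.9% and 17.1% of all features. MTH1 kept its call without any single library, and MIG2 lost it without the second treated slf1Δ library (-1.89, adjusted p = 0.283). The list medians were -0.07, 0.10 and 0.22. Of the 7 other hexose transporter genes with enough counts out of 10, 0 passed in any of the 3 strains, with median responses of 0.33, 0.06 and 0.23. The 9 glucose-repressed genes outside transport likewise gave 0 calls in the 3 responses, with medians of 0.53, 0.24 and 0.13. Between strains, within either condition, HXK1 was the only gene of these 4 lists to pass.

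The HXT6 profile lay 0.42 from that of HXT7 over the 12 untagged libraries, as the root mean square difference of centred log2 levels. Outside the 7 members, the genes most like HXT7 among 5590 protein-coding genes were the amino acid permease gene GAP1, the mitochondrial glycerol 3-phosphate dehydrogenase gene GUT2 and the nuclear export gene SUS1. Their differences were 0.70, 0.71 and 0.72, against a median of 1.36 over all genes compared. For HXT3 they were IKI1, TCD2 and HSC82 (0.13 to 0.15), and for HXT1 they were SCW4, INM1 and CTS1 (all 0.30).

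Before the start codon HXT6 and HXT7 are not alike, with 290 differences over 500 nt. In the 500 nt before the start codon, the stress response element AGGGG, searched on both strands, occurs in 34.1% of 6000 promoters. HXT7 and HXT5 have 2 matches each, HXT1 has 1, and the windows of HXT2, HXT3, HXT4 and HXT6 have none. The matches of HXT7 and HXT5 are printed, as 2 of the 3 members with the largest WT responses. The third, HXT6, has none, and the match of HXT1 (-157 nt, WT log2 response -0.33) is not printed. Counts of HXT6 and HXT7 cannot be told apart, so a response cannot be placed on either promoter. The WT response of HXT7 is also part of the difference for which it was chosen. The motif is in capitals on the strand of the gene, where CCCCT is AGGGG on the other strand. Distances are from the start codon.
HXT7, at -371 nt, chrIV:1156290-1156304: tcgggCCCCTgcgtg
HXT7, at -243 nt, chrIV:1156162-1156176: gagatCCCCTgtaac
HXT5, at -472 nt, chrVIII:296910-296924: acattAGGGGacagt
HXT5, at -304 nt, chrVIII:296742-296756: gttttAGGGGcacgg
The Rgt1 motif CGGANNA occurs in 42.0% of promoters, with 5 matches for HXT3, 4 for HXT1, 2 for HXT2 and HXT4, 1 for HXT5 and HXT6 and none for HXT7. The TATA box letters TATAAA are in all 7 windows and in 60.5% of promoters. The Yap1 motif TTACTAA, found in 11.8% of promoters, is in none of the 7 windows. No AGGGG match overlaps a match of the other motifs, and a match is a description of letters only.

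In the tagged strains the 2 libraries of each label agreed closely, but the labels are in doubt as described above. HXT7 had 46.7 and 45.9 CPM in the Sro9-TAP libraries labelled untreated and 12.7 and 12.6 CPM in those labelled H2O2, and 32.7 and 32.4 against 18.8 and 16.2 CPM for Slf1-TAP. The libraries with high SRX1 were thus also those with more HXT7. HXT6 gave 45.2 and 42.0 against 11.4 and 9.7 CPM in Sro9-TAP and 29.3 and 29 against 19.7 and 16.8 CPM in Slf1-TAP.

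By label, 6 of 7 members differed in each tagged strain, beside 59.2% of all 7672 features for Sro9-TAP and 59.1% for Slf1-TAP. As labelled H2O2 minus labelled untreated, the Sro9-TAP log2 differences were -2.04 ± 0.12 for HXT6, -1.87 ± 0.09 for HXT7, -1.84 ± 0.18 for HXT4, 1.69 ± 0.14 for HXT2, 0.44 ± 0.10 for HXT1 and 0.31 ± 0.08 for HXT3 (edgeR, all adjusted p at most 0.0175), with HXT5 at -0.39 ± 0.16 (adjusted p = 0.0708). For Slf1-TAP they were -1.49 ± 0.10 for HXT1, -1.44 ± 0.16 for HXT5, -0.90 ± 0.09 for HXT7, -0.87 ± 0.18 for HXT4, -0.68 ± 0.12 for HXT6 and -0.66 ± 0.09 for HXT3 (all adjusted p at most 0.00458), with HXT2 at 0.21 ± 0.14 (adjusted p = 0.231). HXT6, HXT7 and HXT4 were lower in the libraries labelled H2O2 in both strains. HXT1 and HXT3 differed in opposite directions in the 2 strains. Over all features, 29.9% were called higher and 29.3% lower by label in Sro9-TAP, and 29.7% and 29.5% in Slf1-TAP. Beside these shares, 4 of 4 hexose phosphorylation genes were lower in Sro9-TAP and 3 of 4 in Slf1-TAP. The sensing and repression list gave 5 higher and 2 lower of 13, then 1 higher and 8 lower. The other hexose transporters gave 0 higher and 2 lower of 9 in each strain, and the glucose-repressed genes 1 higher and 4 lower, then 1 higher and 5 lower of 9.

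**Figure D3:**
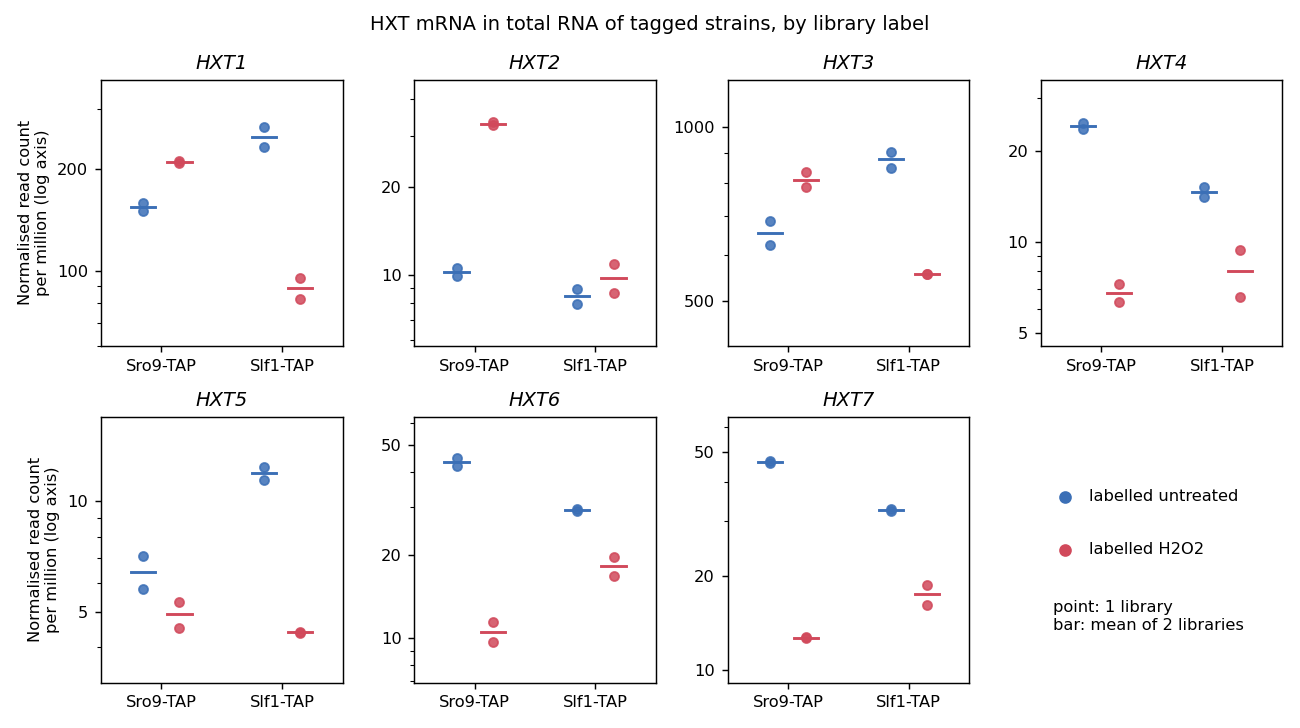
Normalised counts (CPM, log axis) of the 7 HXT mRNAs in the 8 total RNA libraries of the Sro9-TAP and Slf1-TAP strains, by the label each library carries, with 1 point per library and a bar at the mean of 2. HXT7 lay at 45.9 and 46.7 in the Sro9-TAP libraries labelled untreated and at 12.6 and 12.7 in those labelled H2O2, while SRX1 went against these labels.

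PAR-CLIP maps where a protein touches RNA, since 4-thiouracil crosslinked to it reads as a T-to-C conversion. A cluster of overlapping reads entered with 5 reads or more, 2 conversions or more and 11 to 100 nt, and was placed by its mode, the position of strongest signal. All 7 members had a kept cluster in some library, 52 clusters in all. Of these, 48 lay in the open reading frame and 4 after the stop codon. Sro9 gave 42 clusters with 636 reads and Slf1 gave 10 with 139 reads. A single cluster had 5 to 48 reads, so a member without one can have had fewer than 5.

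Clusters in both replicates were counted by member. In untreated cells HXT1, HXT2, HXT3, HXT5, HXT6 and HXT7 had an Sro9 cluster in both replicates (6 of 7), beside 27.7% of 6002 genes. Among genes at or above the WT total RNA level of the member, 86.5% (HXT1), 78.0% (HXT2) and 96.4% (HXT3) had one. For HXT5, HXT6 and HXT7, whose levels were lower, the shares of genes at or above them were 29.5%, 44.9% and 48.0%. These are shares of 5602, 3326 and 3046 genes out of 5908, more abundant mRNAs included, and not of genes at a like level. After H2O2 HXT1, HXT2 and HXT3 had one (3 of 7), beside 32.4% of all genes and 76.8%, 74.2% and 93.3% of genes at or above their treated WT levels. With only clusters that occur in a single place of the genome, the counts were 3 untreated and 3 after H2O2, for HXT1, HXT2 and HXT3, and with at least 20 reads per cluster 0 and 1. Clusters of both replicates did not overlap for HXT5 untreated nor for HXT2 and HXT3 after H2O2. Slf1 clusters in both replicates were on 0 of 7 untreated, beside 5.01% of genes, and on 1 of 7 after H2O2, HXT3, beside 3.35%. Of genes at or above the treated WT level of HXT3, 30.5% had such a treated Slf1 site. With 2 against 2 libraries an exact permutation test cannot go below p = 0.333, so no test was made.

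**Figure D4:**
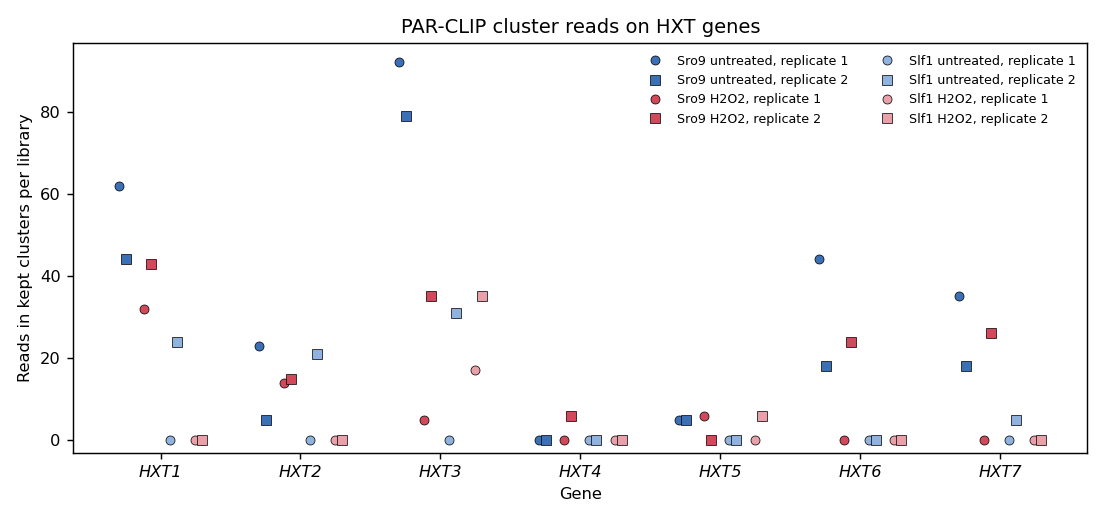
Reads in kept PAR-CLIP clusters on each HXT gene, with 1 point per library and shape by replicate, for Sro9 and Slf1, untreated and after H2O2. HXT3 reached 92 and 79 reads in the untreated Sro9 libraries and HXT1 62 and 44, while HXT4 had 6 reads in 1 library.

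HXT3 and HXT1, the abundant low-affinity carriers, had the most Sro9 reads in both untreated libraries. HXT3 had 92 and 79 reads untreated and 5 and 35 after H2O2, and HXT1 had 62 and 44 then 32 and 43. In the first treated library HXT3 thus lay below HXT1, HXT2 and HXT5, and in the second 23 of its 35 reads were in a cluster that occurs in several places. HXT2 had 23 and 5 then 14 and 15 reads, HXT6 44 and 18 then 0 and 24, and HXT7 35 and 18 then 0 and 26. HXT5 had 5 and 5 then 6 and 0, and HXT4 had 6 in 1 treated library. In raw reads, the treated libraries lay below the untreated ones for HXT3 and HXT1 and overlapped them for HXT2, HXT6 and HXT7. For HXT1 the nearest libraries had 44 reads untreated and 43 after H2O2. Per 1000000 kept cluster reads, HXT1 had 69.6 and 63.2 untreated and 47.2 and 61.4 after H2O2. How many of all bound genes were separated in this way was not counted, so HXT3 and HXT1 cannot be set against a background. No change in binding is drawn from this order. Kept clusters held 678206 to 890669 reads in the 4 Sro9 libraries, of which 57 and 149 were on members after H2O2 and 261 and 169 untreated.

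Set against total RNA, HXT1, HXT2 and HXT3 had lower Sro9 ratios than the median bound mRNA in untreated cells, and HXT5, HXT6 and HXT7 higher ones. As the log2 ratio of RPKM in clusters to RPKM in WT total RNA, with RPKM the reads per kb scaled to library size, untreated HXT3 lay at -2.94, HXT2 at -3.01 and HXT1 at -1.68, beside a median of -1.42 over 1661 bound mRNAs. HXT6 at 0.06 and HXT7 at -0.36 lay above that median, and HXT5, at 0.92, did so from 5 reads per library. All untreated Sro9 reads of HXT6 and HXT7 were in clusters that occur in several places, as were the 5 of HXT5 in the second library. With single-place clusters only, HXT6 and HXT7 had 0 reads and so no ratio. After H2O2, HXT6 was at -3.86 and HXT7 at -3.92, each with reads in 1 library, beside a median of -1.08 over 1940 bound mRNAs. HXT3 was at -4.35 and HXT1 at -1.64. Over this step the WT total RNA level of HXT7 went from 24.5 to 164 RPKM, and its mean Sro9 level from 19.0 to 10.8 RPKM. The clusters are from Sro9-TAP cells grown with 4-thiouracil and the total RNA is from untagged WT cells. HXT mRNA levels of the 2 may differ, so no change in binding per mRNA is drawn from these values. The WT values of HXT7 are also among those for which it was chosen.

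Many Sro9 reads of HXT3, HXT6 and HXT7 fell in a stretch that the 3 share. They are identical over 107 nt, at 634 to 740 nt of HXT3 (chrIV:1163921-1164027) and 643 to 749 nt of HXT6 (chrIV:1160572-1160678) and HXT7 (chrIV:1155180-1155286). Sro9 clusters in this stretch had 35, 39 and 35 reads on HXT3, HXT6 and HXT7 in the first untreated library, 16, 11 and 12 in the second, and 23, 24 and 26 in the second treated one. They made up 63.7%, 33.9% and 85.9% of the cluster reads on these 3 genes in those libraries. The first treated Sro9 library and the 4 Slf1 libraries had none there. All 9 cluster sequences occur in 3 places in the genome, so a read could belong to any of the 3 mRNAs, and near equal counts on the copies do not show which was bound.

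The 30 bases of this stretch that hold the most cluster reads are printed for all members, lined up, with capitals where a base differs from HXT7.
HXT7, 657 to 686 nt, chrIV:1155243-1155272: ttactgtaccaacttcggtactaagaacta
HXT6, 657 to 686 nt, chrIV:1160635-1160664: ttactgtaccaacttcggtactaagaacta
HXT3, 648 to 677 nt, chrIV:1163984-1164013: ttactgtaccaacttcggtactaagaacta
HXT1, 657 to 686 nt, chrVIII:291940-291969: ttactgtaccaaTttTggtacCaagaaTta
HXT2, 630 to 659 nt, chrXIII:288708-288737: ttactgtaccaactATggtactaaAGacta
HXT4, 675 to 704 nt, chrVIII:288108-288137: ttactgtacAaactAcggtacCaagaCcta
HXT5, 720 to 749 nt, chrVIII:295699-295728: AtaTtgtacTaaTttTggtacCaagaaTta
HXT1, HXT2 and HXT4 differ from HXT7 at 4 of the 30 bases and HXT5 at 7. HXT1 had clusters over the aligned stretch in 1 Sro9 library, with 5 reads, and 1 Slf1 library, with 12, both in clusters whose sequence occurs once in the genome.

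**Figure D5:**
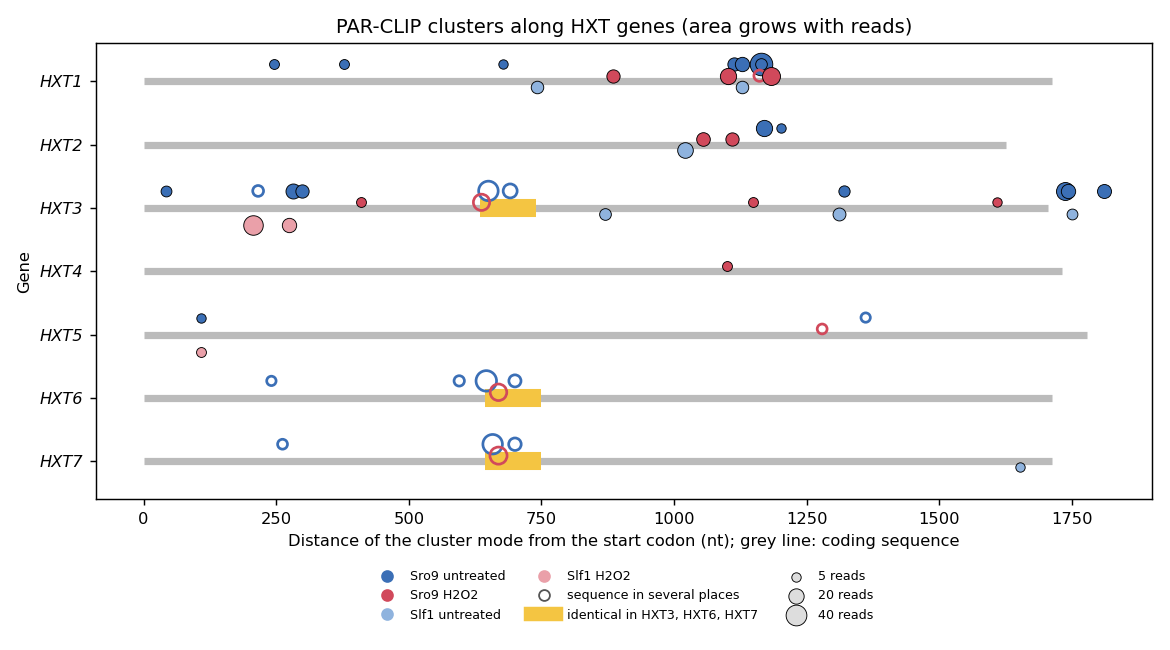
Positions of kept PAR-CLIP cluster modes along the 7 HXT genes as distance from the start codon in nt, coloured by LARP and condition, with area growing with reads, open circles for cluster sequences that occur in several places and a yellow bar for the 107 nt identical in HXT3, HXT6 and HXT7. HXT1 clusters gathered near 1102 to 1183 nt, HXT2 clusters at 1021 to 1201 nt, and most reads of HXT6 and HXT7 in the shared stretch.

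HXT1 had the most recurrent site of its own. Clusters with modes from 1102 to 1183 nt were present in all 4 Sro9 libraries and in the second untreated Slf1 library. The same 27-nt cluster was called for Sro9 (17 reads) and Slf1 (12 reads), both untreated and both with the mode at 1128 nt. A neighbouring cluster had its mode at 1164 nt in both untreated Sro9 libraries, with 48 and 10 reads. Both are printed with the base at the mode in capitals.
HXT1, chrVIII:291492-291518: aacttcttctccacttgttgTtctctg
HXT1, chrVIII:291448-291477: ttttggccgtcgtaaCtgtttgatgtgggg

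HXT2 clusters lay in the like part of the gene, at 1169 and 1201 nt in the untreated Sro9 libraries, 1109 and 1054 nt in the treated ones and 1021 nt in the second untreated Slf1 library, with 5 to 23 reads. The 2 untreated Sro9 clusters overlapped by 20 nt and the 2 treated ones did not overlap. HXT4 had its only cluster, of 6 reads, at 1099 nt. Every HXT2 and HXT4 cluster sequence occurs in 1 place.

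HXT3 also had clusters in sequence of its own. After the stop codon, Sro9 clusters with modes 33 and 39 nt past it had 29 and 17 reads in the 2 untreated libraries, and Slf1 had 8 reads at 45 nt. Bases within both Sro9 clusters are printed, with the mode of the first in capitals. The second library had another cluster there, with 16 reads and the mode at 107 nt.
HXT3, chrIV:1162910-1162939: gtgctgaataatagtGtattttaagattcg
No treated library had a kept cluster there. Near the start of the gene, Sro9 clusters at 281 and 298 nt had 19 and 14 reads untreated, and the Slf1 clusters after H2O2 lay at 274 and 206 nt with 17 and 35 reads, HXT3 being the only member with Slf1 clusters in both replicates. The 2 Slf1 clusters did not overlap.

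HXT5 and HXT7 had few clusters whose whole sequence occurs once. On HXT5, Sro9 untreated (5 reads, mode at 109 nt) and Slf1 after H2O2 (6 reads, mode at 108 nt) gave nearly the same cluster, in sequence that occurs once.
HXT5, chrVIII:296339-296355: ctcgactgctcctggtA
The HXT5 sites of the 2 untreated Sro9 replicates lay at 109 and 1361 nt and did not overlap. On HXT7, the only cluster whose sequence occurs once was from Slf1 untreated, with 5 reads and the mode at 1652 nt, across the region where HXT6 and HXT7 differ. That holds for the 75-nt cluster, while single reads in it can be shorter and match HXT6 as well. At 1677 nt HXT6 has T and HXT7 has C, so a converted HXT6 read would carry the HXT7 base there. No HXT6 cluster sequence occurs once. With multi-place clusters left out, 3 members in place of 6 kept an untreated Sro9 site in both replicates, HXT1, HXT2 and HXT3.

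Slf1 reads on the members came mostly from 1 untreated library. The second untreated Slf1 library had 81 reads on HXT1, HXT2, HXT3 and HXT7, and the first had none on any member. The treated Slf1 libraries had 17 and 41 reads, 17 and 35 of them on HXT3. Kept clusters of the 4 Slf1 libraries held 342238 to 544490 reads per library, of which 23622 to 38664 were on mRNAs. Among the hexose phosphorylation genes, Sro9 had a site in both replicates on 4 of 4 in both conditions and Slf1 on 0 of 4. Of the 10 other hexose transporters, neither LARP had such a site on any. Of the 13 sensing and repression genes, Sro9 had one on 2 untreated (MTH1 and MIG2) and 5 after H2O2 (MIG1, MIG2, YCK1, SNF1 and REG1), and Slf1 on 0. Of the 9 glucose-repressed genes, both LARPs had one on 2 in either condition, ADH2 and JEN1. Over all genes the shares were 27.7% untreated and 32.4% after H2O2 for Sro9, and 5.01% and 3.35% for Slf1. Cluster sequences on genes of these lists were not checked for other places in the genome, so their reads may belong to other genes.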

How the data were processed

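The authors trimmed reads with Trim Galore and mapped them with Bowtie 1.2.0 (version from the submitters' processing notes) to R64-1-1 (sacCer3), and for PAR-CLIP allowed 2 mismatches and up to 10 places, then called clusters per library with PARalyzer. The deposited PAR-CLIP values are counts of reads and conversion events per cluster, and a fraction, the deposited signal share at the mode, which entered no test. The deposited total RNA values are counts per feature from featureCounts, without normalization, after a stranded kit. The strand and multi-mapping settings of the counting are not given in the sources used here.

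Counts of the 12 untagged libraries (6 groups) entered one edgeR model (version 4.0.16, R 4.3.3, TMM, filterByExpr, quasi-likelihood test, Benjamini-Hochberg over all features, call at 0.05), and those of the 8 tagged libraries separately, so levels of the 2 fits are not compared. DESeq2 1.42.0, RLE factors, no filter, removal of rRNA features, HXT6 and HXT7 added together, a replicate block and leaving out each library were alternatives. On simulated WT data (7312 features), 24%, 84%, 94% and 100% of features changed by 1, 1.5, 2 and 3 log2 units were recovered. The changed features were not drawn from those of lowest mean level, and no effects of single libraries were simulated. Recovery may thus be lower for scarce members such as HXT4 and HXT5.

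Clusters were assigned by their mode to an open reading frame, or to 200 nt after the stop or 100 nt before the start codon. Whole cluster sequences of the members, not single reads, were matched to the genome, and coding sequences aligned with MAFFT 7.526. Python 3.11.15, pandas 2.3.3 and numpy 2.4.6 were used. Sequences are from NCBI RefSeq's R64 assembly. The members and lists were chosen with earlier results of these data known. Named genes were the 7 members, genes of the 4 lists past the threshold (at most 6 per list and contrast by smallest p), genes that check labels, and the 3 genes most like a member by root mean square difference. For the tagged libraries, whose labels are in doubt, lists are given as counts without these names.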

Additional observations from a re-analysis of the deposited data

Results flagged for a closer look

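In 3 members, in the untagged strains, both treated libraries lay above both untreated ones in one strain and below them in another, and none of these differences was tested. The share of all features with this pattern was not counted, so the 3 members cannot be set against a background. HXT7 had a log2 H2O2 response of 2.60 in WT and -0.53 in slf1Δ, HXT6 2.63 and -0.23, and HXT4 0.47 and -0.24. HXT6 also had a response of 0.54 in sro9Δ against the -0.23 in slf1Δ. HXT7 was chosen for its difference, HXT6 shares its reads, and HXT4 had as few as 1 count in a library. Each of these slf1Δ responses, the sro9Δ response of HXT6 and the WT response of HXT4 was within 2 standard errors of 0. In the tagged libraries the same held by label for HXT1, with 0.44 in Sro9-TAP and -1.49 in Slf1-TAP, and for HXT3, with 0.31 and -0.66, where SRX1 goes against the labels of all 8 libraries.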

How the results depend on the processing

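The WT call of HXT5 held in all alternatives run. In the slf1Δ response 2 members were called, but 1 with DESeq2, RLE size factors, rRNA features removed or the replicate block, and 0 to 0 on leaving out a library. DESeq2 called 1 member, HXT1, for sro9Δ against WT after H2O2. The HXT7 difference between slf1Δ and WT ran from -4.15 to -2.53 when single libraries were left out. On leaving out a library, counts of called members ran from 1 to 1 for WT, 0 to 0 for the sro9Δ response, 0 to 1 for sro9Δ or slf1Δ against WT untreated, 0 to 0 for both strains against WT after H2O2, 0 to 1 for the sro9Δ minus WT response, 4 to 6 for Sro9-TAP and 6 to 6 for Slf1-TAP. With at least 20 reads per cluster, members bound in both replicates fell to 0 for Sro9 untreated, 1 for Sro9 after H2O2 and 0 for Slf1 after H2O2, and the mean Sro9 untreated reads per library fell from 215 to 104.5, or to 125.5 without multi-place clusters, which left 3 members. In single replicates 6 to 6 and 4 to 6 members had an Sro9 site (169 to 261 and 57 to 149 reads), and 0 to 4 and 1 to 2 an Slf1 site (0 to 81 and 17 to 41 reads), untreated and after H2O2.

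Calls over all features depend on single libraries. Without the second untreated WT library they went from 16 to 602 for sro9Δ and from 11 to 1043 for slf1Δ against WT untreated, and from 0 to 858 and 487 for the slf1Δ and sro9Δ differences in response. Without the second treated slf1Δ library the 52 calls for slf1Δ against WT after H2O2 fell to 0. DESeq2 gave 39, 28, 23 and 50 calls for sro9Δ and slf1Δ untreated, sro9Δ after H2O2 and the slf1Δ difference, where edgeR gave 16, 11, 3 and 0. Leaving out a library left 944 of 2627 WT calls at the lowest, 365 of 1174 for sro9Δ and 490 of 1264 for slf1Δ. The cause was not tested. A lone library in a group was taken to vary like the other groups.

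Cultures were split before treatment, but the labels do not tie a number to a culture, so whether replicate numbers pair the samples is not known. The correlation of replicate differences was -0.15 in WT, -0.09 in sro9Δ, 0.28 in slf1Δ, -0.01 in Sro9-TAP and 0.15 in Slf1-TAP. With the replicate block, 120 features in place of 52 were called for slf1Δ against WT after H2O2, 24 in place of 0 for the slf1Δ difference in response, and HXT1 was not called in slf1Δ (adjusted p = 0.0764).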
